A study of Mus musculus with 3 samples.

Results

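TALE homeodomain proteins are the DNA-binding partners of the Hox proteins, and 9 of their genes were followed here in 3 segments of the embryonic mouse gut. Members were the rows of the deposited expression table whose gene name is Meis1, Meis2, Meis3, Pbx2, Pbx3, Pbx4, Pknox1, Pknox2 or Tgif1. All 9 names were found, 1 row each, among 33762 features. The segments were ileum, caecum and colon of wild-type embryos at E13.5, of the strain given as Bl6/C57, with no treatment named and with 1 sample per tissue. The ileum sample was the last of 3 equal portions of the small intestine. Polyadenylated RNA of whole tissue was read as paired 100 bp reads, so all gut layers are mixed in each value. The number of embryos in a sample was not given in the sources used here. Fewer cells of a type and less RNA per cell cannot be told apart in such tissue.

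TALE proteins carry a homeodomain with a few extra amino acids in the loop between its first helices, from which the class takes its name. Meis and Pknox (also called Prep) proteins bind Pbx proteins, which holds the pair in the nucleus, and Pbx or Meis proteins join Hox proteins on DNA and sharpen their choice of sites. Tgif1 has the same kind of homeodomain but acts as a corepressor, known for dampening the response to TGF-beta through Smad proteins and to retinoic acid. In the gut, Hox genes mark position along the tube and are known for their part in forming the caecum and the hindgut.

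The libraries held 50079617, 64439701 and 50772855 counts in ileum, caecum and colon. Each tissue has 2 count columns that differed by less than counting noise, at 0.422 to 0.449 times the counting variance, and they were averaged and treated as 1 library. A fold is the ratio of counts after scaling of the libraries by trimmed mean of M values (TMM), and the range in brackets is its exact 95% interval. These intervals cover counting error only, and with 1 library per tissue no difference has a replicate check and no test across samples could be run. Levels are compared between genes only in RPKM, which divides reads by gene length and by library depth. Markers of the segments lay with the labels at both ends: Gata4, a transcription factor of the more anterior gut, had 702, 4 and 58 counts in ileum, caecum and colon, and Hoxd13, a gene of the hindgut end, had 1, 13 and 2354. Fgf10, a growth factor needed for the caecal bud, had 124, 2162 and 3663.

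Promoter sequence was at hand for 6 of the 9 genes, as 10 windows of 250 bases before a RefSeq start site in the build GRCm38.p6. Printed here are upstream stretches, outside annotated exons, of Meis1, Pbx4 and Tgif1. Meis1 and Pbx4 had the same order of tissues in the data below. Tgif1 had several windows, and the 1 printed in part held the only match to a Pbx and Hox site among the 10. All windows were searched on both strands for CCAAT, for TATAAA, for TGACAG (the core bound by Meis, Pknox and Tgif proteins) and for TGATTNAT (the joint site of Pbx and Hox proteins). Capitals mark the matches, and each sequence runs 5′ to 3′ on the strand of its gene.
Meis1 (chr11:19018986-19019219, minus strand): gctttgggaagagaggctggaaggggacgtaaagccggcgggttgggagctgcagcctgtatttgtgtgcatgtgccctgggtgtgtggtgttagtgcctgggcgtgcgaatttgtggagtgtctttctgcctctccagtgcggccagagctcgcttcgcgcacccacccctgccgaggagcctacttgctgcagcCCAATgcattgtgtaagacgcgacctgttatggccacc
Pbx4 (chr8:69832374-69832490, plus strand): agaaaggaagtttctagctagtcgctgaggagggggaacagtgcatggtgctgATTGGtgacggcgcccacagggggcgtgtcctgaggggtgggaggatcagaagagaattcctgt
Tgif1 (chr17:70849815-70850040, minus strand): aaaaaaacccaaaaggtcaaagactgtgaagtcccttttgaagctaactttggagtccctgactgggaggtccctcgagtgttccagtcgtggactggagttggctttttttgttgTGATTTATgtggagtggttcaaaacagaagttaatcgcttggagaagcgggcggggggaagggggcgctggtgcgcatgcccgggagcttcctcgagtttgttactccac
In the Meis1 stretch the capitals mark CCAAT, 54 to 50 bases before the start site, in Pbx4 its reverse complement ATTGG, 197 to 193 bases before (a further ATTGG, 30 to 26 bases before, lies outside the printed stretch), and in Tgif1 TGATTTAT, 134 to 127 bases before. Another Tgif1 window, not printed, held CCAAT 117 to 113 bases before its start site. Of all 32817 windows of the same length, 33.83% held CCAAT, as did 4 of the 10 here, and 2.828% held TGATTNAT. TGACAG was in none of the 10 windows, against 15.86% of all windows, and TATAAA, at 12.37% of all windows, was in 1 window, that of Meis2. These matches describe the letters of the windows and are not measured binding sites.

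All 9 genes were transcribed in all 3 tissues, at 80 counts or more in every library. The range of levels was wide, from 0.530 RPKM for Pbx4 in the colon to 58.7 RPKM for Pbx2 in the caecum. Pbx2 was the most abundant of the 9 in each tissue, above 91.1% of the genes with at least 20 counts in the ileum, 93.3% in the caecum and 91.6% in the colon. Meis1 and Meis2 came next in all 3 tissues, followed by Tgif1. Pbx4 was the least abundant in each tissue and stood above 13.4%, 18.7% and 11.0% of genes. Summed over the 9 genes, the level was 174.6 RPKM in the ileum, 231.7 in the caecum and 193.4 in the colon.

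**Figure D1:**
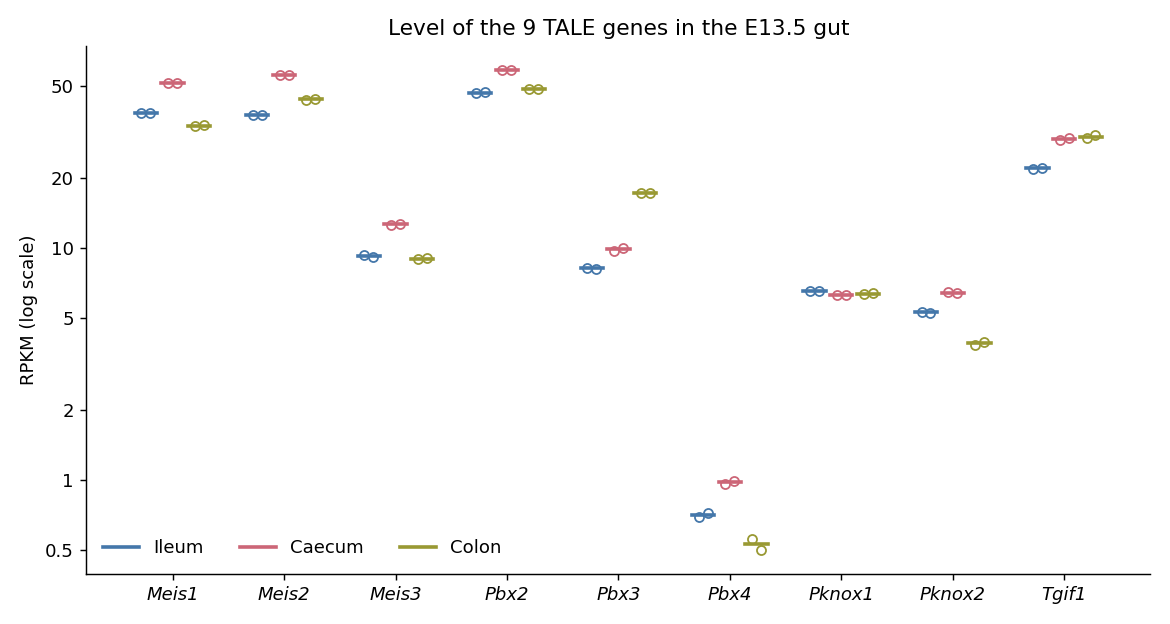
RPKM of the 9 TALE genes on a log scale, in ileum, caecum and colon. Open circles are the 2 columns of each library and the line is their mean. The caecum line is the highest for 6 genes, the colon line stands apart for Pbx3, and Pknox1 is level at 6.28 to 6.56 RPKM.

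The differences between tissues were small beside those of the Hox genes and ran mostly one way: 6 of the 9 genes were highest in the caecum. Among 18005 genes compared in all 3 tissues, 36.7% were highest in the caecum, 34.3% in the ileum and 28.9% in the colon. Only Pbx3 reached a 2-fold difference between any pair of tissues, between colon and ileum. At 2-fold, counting a gene where its higher library reached 20 counts, 0 of 9 members were called for caecum and ileum against 7.11% of 17827 genes, 0 of 9 for caecum and colon against 7.84% of 17900, and 1 of 9 for colon and ileum against 8.33% of 17579. At 1.5-fold, 0 of 9 members were called for caecum and ileum, where 15.4% of genes were. For caecum and colon 4 of 9 were, against 15.5% of genes, with Meis1, Pbx4 and Pknox2 higher in the caecum and Pbx3 higher in the colon. For colon and ileum 1 of 9 was, again Pbx3, against 15.9%.

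Smaller shifts toward the caecum ran through most members. The median log2 fold of caecum over ileum was 0.41 over the members and 0.01 over all genes, and 8 of 9 members and 51.3% of genes lay above 0. Caecum over colon had a median of 0.35 over members and 0.01 over all genes, with 6 of 9 members and 51.7% of genes above 0. Colon over ileum had a median of -0.05 over members, with 4 of 9 above 0. The caecum library enters the first 2 of these comparisons, so they are not separate evidence. The highest tissue exceeded the lowest by a median of 1.47-fold over the members and 1.22-fold over all genes.

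**Figure D2:**
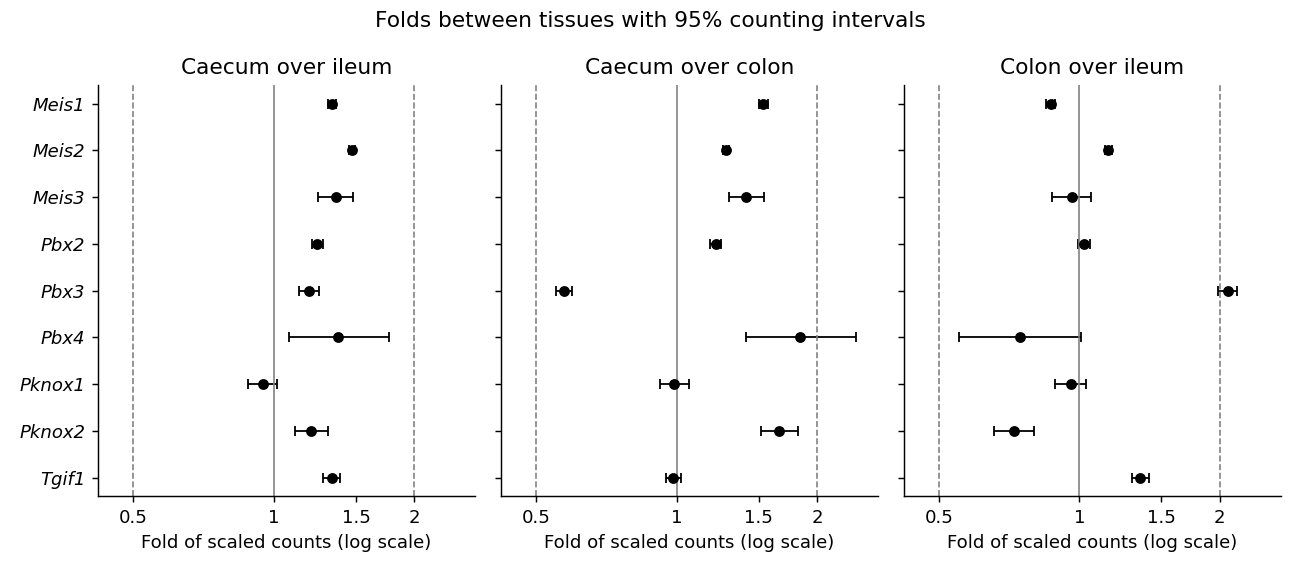
Fold of TMM-scaled counts for each TALE gene and each pair of tissues, on a log scale. Bars are exact 95% counting intervals, the solid line is no difference and dashed lines are 2-fold either way. Pbx3 reaches the 2-fold line for colon over ileum, and 8 of 9 points lie to the right of 1 for caecum over ileum.

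The Meis genes encode the proteins that bind Pbx partners and keep them in the nucleus. Together they made up 48.7% of the summed RPKM of the 9 genes in the ileum, 51.7% in the caecum and 44.7% in the colon. Meis1 (ENSMUSG00000020160, mm9 chromosome 11, 18780433 to 18918961, minus strand), best known as a regulator of blood stem cells and as a leukaemia gene, had 14162 counts in the ileum, 24540 in the caecum and 12642 in the colon, or 38.2, 51.5 and 33.7 RPKM. The caecum was highest and the colon lowest, and the 2 columns of a library lay close together, for example at 33.5 and 33.9 RPKM in the colon. Meis1 was 1.33-fold (1.30 to 1.36) higher in caecum than in ileum, 1.54-fold (1.5 to 1.57) higher in caecum than in colon, and 1.15-fold (1.13 to 1.18) higher in ileum than in colon.

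Meis2 (ENSMUSG00000027210, mm9 chromosome 2, 115688800 to 115891575, minus strand), known for roles in limb, palate and neural crest, had 22268, 42580 and 26430 counts in ileum, caecum and colon, or 37.4, 55.7 and 43.8 RPKM. It too was highest in the caecum, but its lowest tissue was the ileum. Its folds were 1.47 (1.45 to 1.49) for caecum over ileum, 1.27 (1.26 to 1.29) for caecum over colon and 1.15 (1.13 to 1.17) for colon over ileum. Meis1 and Meis2 therefore stood in opposite order between ileum and colon. Their RPKM ratio, Meis1 over Meis2, was 1.02 in the ileum, 0.925 in the caecum and 0.768 in the colon.

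Meis3 (ENSMUSG00000041420, mm9 chromosome 7, 16760729 to 16771853, plus strand), the least studied of the family, had 842, 1486 and 834 counts, or 9.24, 12.7 and 9.02 RPKM in ileum, caecum and colon. Its level was 0.206 to 0.247 times that of Meis2. Only the caecum stood apart, by 1.36-fold (1.25 to 1.48) over ileum and 1.41-fold (1.29 to 1.54) over colon. Ileum and colon differed by 1.04-fold, within counting error (0.943 to 1.14).

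The Pbx proteins are the partners that bind most Hox proteins directly. Pbx2 (ENSMUSG00000034673, mm9 chromosome 17, 34728211 to 34734345, plus strand), a broadly transcribed member, had 8538, 13760 and 8980 counts, or 46.8, 58.7 and 48.6 RPKM. Among the Pbx genes listed here it was the nearest to level, with caecum over ileum at 1.24-fold (1.21 to 1.27) and caecum over colon at 1.21-fold (1.18 to 1.24). Colon and ileum differed by 1.02-fold, within counting error (0.992 to 1.05).

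Pbx3 (ENSMUSG00000038718, mm9 chromosome 2, 34026977 to 34228660, minus strand), known for its need in the hindbrain circuits of breathing, was the member with the widest range between tissues, and one of 3 not highest in the caecum, with Tgif1 and Pknox1. It had 2626 counts in the ileum, 4070 in the caecum and 5618 in the colon, or 8.19, 9.87 and 17.3 RPKM, so its level was highest at the posterior end. The colon exceeded the ileum by 2.08-fold (1.98 to 2.18) and the caecum by 1.74-fold (1.68 to 1.82), and the caecum exceeded the ileum by 1.19-fold (1.13 to 1.25). The interval of the colon over ileum fold reaches below 2, so counting error alone leaves its side of the 2-fold line unsettled. Pbx3 over Pbx2 in RPKM was 0.175 in the ileum, 0.168 in the caecum and 0.356 in the colon. Its share of the summed RPKM of the 9 genes was 4.69%, 4.26% and 8.94%.

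Pbx4 (ENSMUSG00000031860, mm9 chromosome 8, 72356523 to 72397062, plus strand), known mainly from the testis, had 104, 186 and 80 counts, or 0.707, 0.977 and 0.530 RPKM. The caecum was again highest, 1.38-fold (1.08 to 1.77) above the ileum and 1.84-fold (1.41 to 2.42) above the colon. Ileum over colon was 1.34-fold, within counting error (0.990 to 1.81). As the most thinly counted member it was also the one whose columns differed most, by 11.0% in the colon, and the caecum over colon fold was 1.73 from the first columns and 1.99 from the second.

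**Figure D3:**
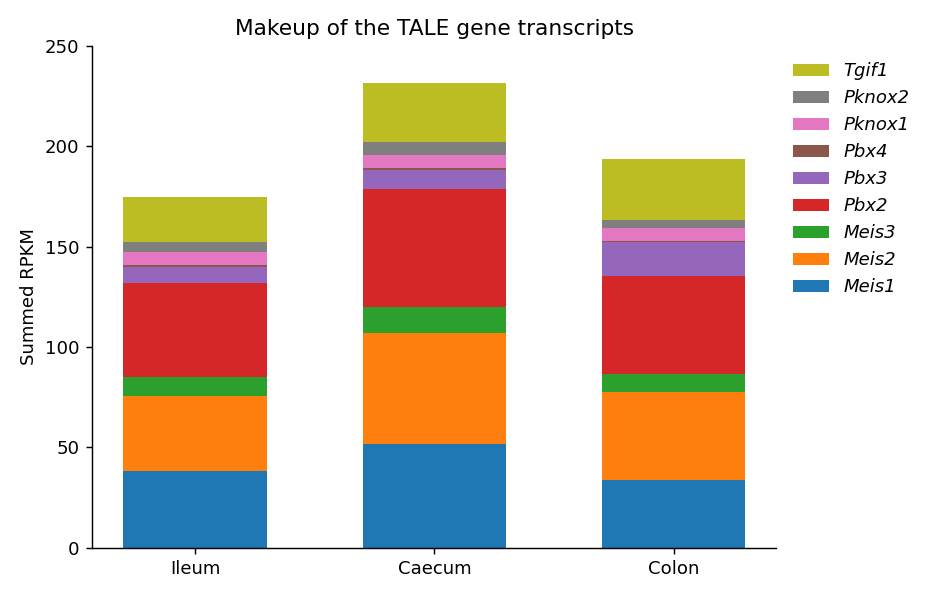
Summed RPKM of the 9 TALE genes in each tissue, stacked by gene. The bars reach 174.6, 231.7 and 193.4 RPKM in ileum, caecum and colon, with Pbx2, Meis1 and Meis2 as the thickest layers and a thicker Pbx3 layer in the colon.

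The Pknox genes encode the other partners of Pbx proteins, and they were split. Pknox1 (ENSMUSG00000006705, mm9 chromosome 17, 31701718 to 31744638, plus strand), essential in early embryos, had 1384, 1704 and 1364 counts, or 6.56, 6.28 and 6.37 RPKM in ileum, caecum and colon. No pair of tissues differed beyond counting error, with folds of 1.06 (0.983 to 1.13) for ileum over caecum, 1.01 (0.942 to 1.09) for colon over caecum and 1.04 (0.968 to 1.13) for ileum over colon. Pknox2 (ENSMUSG00000035934, mm9 chromosome 9, 36698570 to 36954899, minus strand) had 935, 1464 and 697 counts, or 5.28, 6.43 and 3.88 RPKM. It was highest in the caecum and lowest in the colon, at 1.20-fold (1.11 to 1.31) for caecum over ileum, 1.66-fold (1.52 to 1.82) for caecum over colon and 1.38-fold (1.25 to 1.52) for ileum over colon. Pknox2 over Pknox1 in RPKM was 0.805, 1.02 and 0.609 in ileum, caecum and colon, so Pknox2 was the less abundant of the pair outside the caecum.

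Tgif1 (ENSMUSG00000047407, mm9 chromosome 17, 71193545 to 71202886, minus strand), the corepressor among the members, had 3721, 6436 and 5172 counts, or 22.1, 29.7 and 30.2 RPKM. Here the ileum was the tissue that stood apart, at the low end. Caecum over ileum was 1.33-fold (1.28 to 1.38) and colon over ileum 1.35-fold (1.29 to 1.41), while colon over caecum was 1.02-fold, within counting error (0.979 to 1.05). Its share of the summed RPKM was 12.6%, 12.8% and 15.6%.

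By the order of the 3 tissues the members fell into 4 groups, with 1 group for a level gene. Meis1, Meis3, Pbx4 and Pknox2 had the order caecum, ileum, colon, with ileum and colon not told apart by counting error for Meis3 and Pbx4. Meis2 and Pbx2 had the order caecum, colon, ileum, with ileum and colon not told apart for Pbx2. Tgif1 and Pbx3 were highest in the colon, Tgif1 with the caecum nearly level, and Pknox1 was level. As a measure of likeness, log2 scaled counts were centred on each gene's mean and the distance was taken over the 3 tissues. The nearest pairs were Meis1 and Meis3 at 0.11, Pbx4 and Pknox2 at 0.14, and Meis3 and Pbx2 at 0.15, and the farthest was Pbx3 and Pbx4 at 1.30. Distances did not always follow the groups, as Tgif1 lay nearer to Meis2, at 0.27, than to Pbx3, at 0.58.

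The Hox partners of these genes differed between the same libraries on another scale. Of 39 Hox genes, 26 of 34 compared were at least 2-fold apart between caecum and ileum, 20 of 36 between caecum and colon and 25 of 35 between colon and ileum, where the TALE genes had 0, 0 and 1 of 9. Summed Hox RPKM was 177 in the ileum, 312 in the caecum and 187 in the colon, and the sums of both gene sets were highest in the caecum. The makeup of the Hox sum changed far more: genes of groups 1 to 8 gave 174, 129 and 64.7 RPKM, and genes of groups 9 to 13 gave 2.98, 183 and 122. Summed TALE RPKM over summed Hox RPKM was 0.985, 0.742 and 1.03 in ileum, caecum and colon. These ratios compare transcripts of the members listed, and say nothing of protein.

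**Figure D4:**
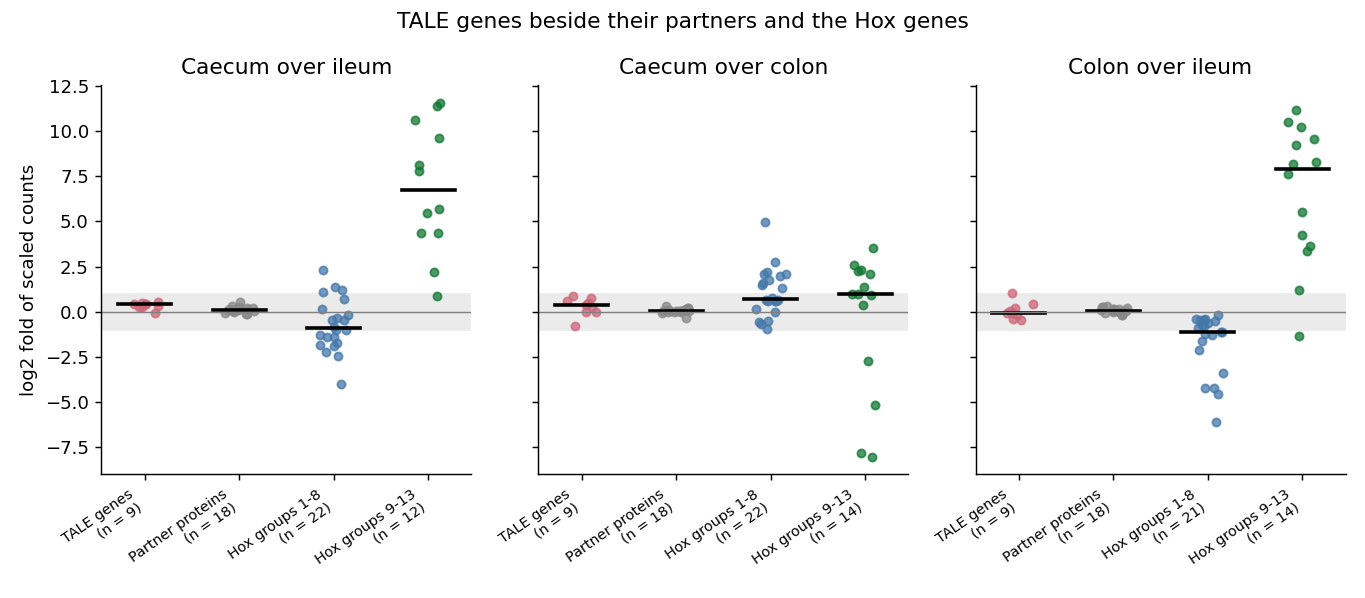
Log2 fold of scaled counts for each gene whose higher library reached 20 counts, with 0 counts set to 3, in 3 pairs of tissues. Points are genes, bars are medians and the grey band is under 2-fold. TALE genes and genes of partner proteins lie in or near the band, with medians of 0.41 and 0.12 for caecum over ileum. Hox genes of groups 9 to 13 lie up to several log2 units above the band where the ileum is the lower tissue.

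Transcripts of other proteins listed here as working with TALE factors were close to level. The list held 19 genes for corepressors, coactivators and direct partners such as histone deacetylases, Smad proteins and Pbxip1, and 18 were compared. None of the 18 was 2-fold apart in any of the 3 comparisons. Their median absolute log2 fold was 0.13 for caecum over ileum, 0.07 for caecum over colon and 0.11 for colon over ileum. In the same order it was 0.41, 0.50 and 0.21 for the members and 0.19, 0.17 and 0.15 for all genes. Over genes with at least 100 counts in any library it was 0.17, 0.15 and 0.13. Zfp703, a transcriptional corepressor, differed most, with 1435, 2728 and 1704 counts and 1.46-fold (1.37 to 1.56) more in caecum than in ileum. Crebbp, a histone acetyltransferase, was 1.23-fold (1.18 to 1.28) and Smad3, a carrier of the TGF-beta signal that Tgif1 restrains, 1.21-fold (1.16 to 1.27) higher in caecum than in ileum. Of 8 further TALE homeobox genes, 3 had 20 counts or more in any library. Between colon and ileum, 1 of these 3 was 2-fold or more higher in the colon and 1 lower. Tgif2 had 6019, 7979 and 7386 counts in ileum, caecum and colon, or 38.2, 39.4 and 46.3 RPKM, above Tgif1 in each tissue. It was near level, at 1.02-fold (0.986 to 1.05) for caecum over ileum and 1.19-fold (1.15 to 1.23) for colon over ileum. The sums over the members leave Tgif2 out. Mkx, a regulator of tendon and muscle connective tissue, had 142, 345 and 422 counts in ileum, caecum and colon, the same order as Pbx3, with a colon over ileum fold of 2.89 (2.38 to 3.52). Irx2, an Iroquois factor, ran the other way, with 26, 24 and 4 counts, 6.69-fold (2.32 to 26.4) higher in ileum than in colon.

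Retinoic acid is a known inducer of Meis genes and of Hox genes, and Tgif1 restrains its response. Of 12 genes of retinoic acid response and metabolism, 11 were compared between caecum and ileum. Of these, 3 were 2-fold or more above the ileum in the caecum and 1 as far below, against 4.59% and 2.52% of all genes. Crabp2, a retinoic acid carrier, had 120, 1796 and 294 counts, a caecum over ileum fold of 11.5 (9.56 to 14.0). Cyp26a1, which degrades retinoic acid, had 12, 154 and 14 counts, 9.87-fold (5.49 to 19.5) higher in caecum, while Cyp26b1, an enzyme of the same kind, had 1306, 538 and 480 and was lower there, at 0.317 times the ileum (0.286 to 0.350). Rarb, a receptor that retinoic acid itself induces, had 1697, 4164 and 2340 counts, a caecum over ileum fold of 1.89 (1.78 to 1.997), and Aldh1a2, which makes retinoic acid, was at 0.654 times the ileum (0.630 to 0.679). Against the colon, the caecum was 2-fold higher or more for 3 of 11 and lower for none, where 5.11% and 2.74% of all genes were. Between colon and ileum 1 of 10 was higher and 1 lower, against 4.04% and 4.29% of all genes. The part of retinoic acid in the values of the members was not tested.

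Cell type markers also differed between these whole-tissue libraries. An order of 3 tissues is easily shared between a list and a member, so a shared order is a description only. The 8 markers of enteric neurons summed to 148, 180 and 86.4 RPKM in ileum, caecum and colon, which is the order of Meis1, Meis3, Pbx4 and Pknox2. For Meis3 and Pbx4, ileum over colon was within counting error, at 1.04-fold (0.943 to 1.14) and 1.34-fold (0.990 to 1.81). In RPKM, 6 of the 8 neuron markers had the order of their sum, and Prph, highest in the ileum, and Ret, lowest there, did not. Of these 8, 5 were at least 2-fold higher in caecum than in colon and 5 at least 2-fold lower in colon than in ileum, and Elavl3, an RNA-binding protein of neurons, had 688, 962 and 236 counts. Markers of enteric glia and neural crest progenitors summed to 118, 104 and 62.0 RPKM, with 1 of 5 at least 2-fold higher in caecum than in colon and 3 of 5 at least 2-fold lower in colon than in ileum. Ednrb gave most of that sum, at 77.8, 64.0 and 38.7 RPKM. Of all 6 glial markers, 3 had the order of the sum, and Sox10, Erbb3 and S100b, highest in the caecum, did not. Markers of interstitial cells of Cajal, the pacemaker cells, summed to 57.6, 74.4 and 105 RPKM, the order of Pbx3, which 2 of the 3 had themselves. Kit, their receptor tyrosine kinase, carried most of that order, with 15.6, 26.4 and 49.6 RPKM and a colon over ileum fold of 3.13 (3.02 to 3.23). Ano1, a chloride channel, had 22.1, 28.7 and 35.3 RPKM and a fold of 1.57 (1.52 to 1.63), and Etv1, a transcription factor, was nearly level at 19.8, 19.2 and 20.4 RPKM with a fold of 1.01 (0.978 to 1.05). The part of these cell types in the values of Meis1, Meis3, Pbx3, Pbx4 and Pknox2 was not tested.

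Smooth muscle markers summed to 1111, 435 and 597 RPKM, with 5 of 7 at least 2-fold lower in caecum than in ileum, and the order of the sum was one that among the members only Pknox1 shared, within its counting error. Mesothelial markers summed to 35.3, 45.6 and 53.3 RPKM, the order of Tgif1 and Pbx3, and 3 of the 5 had that order themselves. Upk3b gave most of the sum, at 21.2, 27.4 and 29.5 RPKM, whereas Lrrn4 was lowest in the caecum at 3.50, 2.15 and 3.38 RPKM, as was Msln at 0.227, 0.121 and 1.91 RPKM, with 8.26-fold (5.40 to 13.2) more in colon than in ileum. Their part in the values of Tgif1 and Pbx3 was not tested. Markers of epithelium (200, 207 and 241 RPKM), mesenchyme (766, 764 and 829), endothelium (53.5, 53.2 and 65.1) and leukocytes (9.85, 11.7 and 10.1) differed by at most 1.22-fold between tissues in their sums, but not all their single markers were level. The epithelial sum had the order of Tgif1 and Pbx3, which 4 of its 8 markers had themselves. The leukocyte sum had the order of Meis2 and Pbx2, which 1 of its 5 markers had. Of the 8 mesenchyme markers, 1 had the order of their sum. The transcription factors Prrx1 and Twist1 were lowest in the ileum, with 5, 312 and 220 counts for Prrx1 and 182, 734 and 804 for Twist1. In RPKM, Foxf1a, Col1a2 and Col3a1 were lowest in the ileum too, and Pdgfra, Col1a1 and Vim were lowest in the caecum. The Twist1 folds were 3.10 (2.63 to 3.67) for caecum over ileum and 4.29 (3.65 to 5.07) for colon over ileum. Of the 8 epithelial markers the keratin Krt19 was 2-fold apart, at 2.16-fold (2.05 to 2.28) for colon over ileum, and of the 5 leukocyte markers Mpo was, with 8, 118 and 0 counts. None of the 6 endothelial markers was 2-fold apart in any of the 3 comparisons. The part of these cells in the values of the members was not tested. Every marker of these lists was counted in every library except Mpo, an enzyme of myeloid cells, at 0 in the colon, while Foxf1 was not matched.

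**Figure D5:**
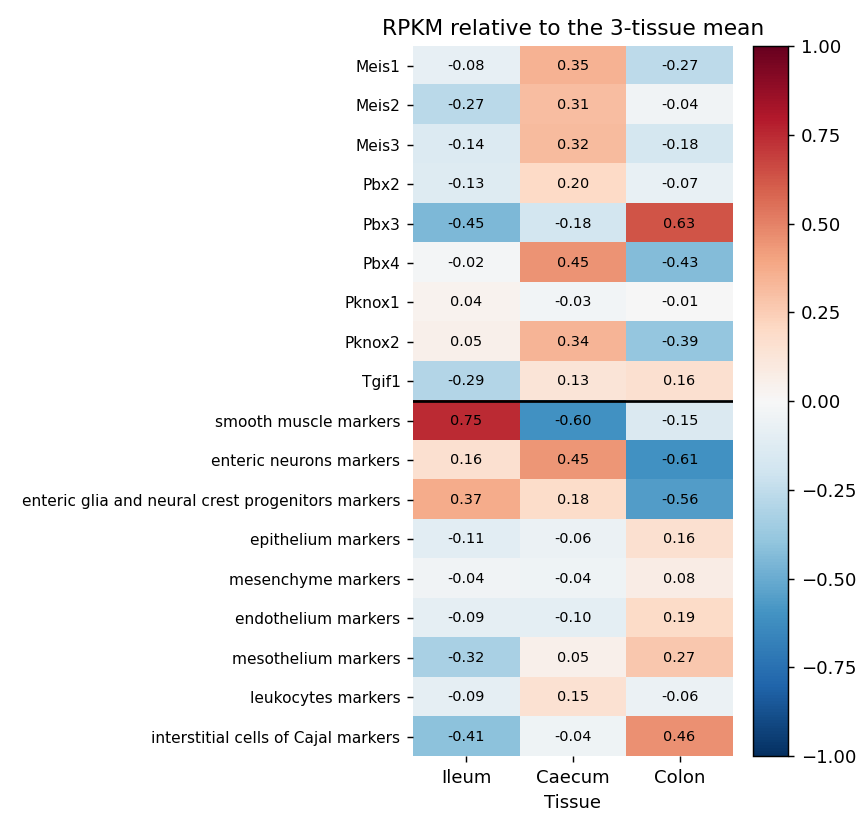
RPKM of the 9 TALE genes and summed RPKM of 9 cell marker lists in ileum, caecum and colon, as log2 minus the mean of each row. Red is above and blue below that mean. Meis1, Meis3, Pbx4 and Pknox2 share their order with the summed enteric neuron markers, with ileum and colon within counting error for Meis3 and Pbx4. Pbx3 shares its order with the summed markers of interstitial cells of Cajal, at -0.45, -0.18 and 0.63 against -0.41, -0.04 and 0.46. The summed epithelium markers (-0.11, -0.06 and 0.16) and mesothelium markers (-0.32, 0.05 and 0.27) have that order too, as does Tgif1.

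For the 4 members whose highest library was at least 1.5-fold above the lowest, the genes of most similar profile were sought among those with at least 100 counts in every library. Closest to Meis1 over the 3 tissues were Sh3yl1, Thbs3 and Chst10, at distances of 0.0096, 0.012 and 0.013, with 72 of 11441 genes within 0.1. Pbx3 had fewer near neighbours, 8 of 11441 within 0.1, led by Mapkapk3, Rnf112 and Lipg at 0.049, 0.050 and 0.052. Closest to Pbx4 were Lrrc4b, Cthrc1 and Tmod2 at 0.0031, 0.016 and 0.020, with 37 of 11442 within 0.1. Pbx4 itself had only 80 counts in the colon, under the minimum set for the genes searched. Its counting error (1.41 to 2.42 for caecum over colon) is far larger than these distances, so its nearest genes are not settled. Closest to Pknox2 were Eif2s3y, Ephb1 and Bex2 at 0.012, 0.021 and 0.023, with 42 of 11441 within 0.1. Eif2s3y is carried by the Y chromosome, so its level depends on the sexes of the embryos sampled. A profile of 3 points is easily matched, and these likenesses are descriptions.

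Features that overlap the members took few counts. Gm16140 lies inside Meis1 on the opposite strand (chromosome 11, 18909131 to 18911186) and had 47, 86 and 80 counts in ileum, caecum and colon beside the 12642 or more of Meis1. Gpsm3 shares 489 bases with Pbx2 on the same strand and had 242, 400 and 273 counts. The small features AC166172.1 in Pknox1 and n-R5s82 in Pknox2 had 0 to 1 count. The strand setting of the counting was not given in the sources used here, so reads of opposite-strand pairs cannot be told apart.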

How the data were processed

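Polyadenylated RNA of 3 whole tissues was sequenced, 1 sample each. Bowtie 0.12.7, DESeq and mm9 are named in the submitters' processing notes. Per the file headers, the authors deposited expected counts (with fractions of 0.5 in some genes) and RPKM per Ensembl gene, in 2 columns per tissue called replicates. The counting program, the annotation release and the counting of strand and of both reads of a pair were not given in the sources used here. If both reads of a pair were counted, the intervals are too narrow.

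From these values, the 2 columns were averaged, counts were rounded to whole numbers, and edgeR 4.0.16 (R 4.3.3) gave TMM factors for the libraries. The 95% interval of a fold is the exact Clopper-Pearson interval of one library's share of the counts of both, turned into a ratio (scipy 1.17.1). Genes were compared where the higher library reached 20 counts, and 0 counts were set to a floor of 3. With 1 sample per group there was no test, and no p-value is given. The code was tested on simulated data. Alternatives were DESeq2 1.42.0 size factors, total counts, RPKM ratios, each column alone, other count minimums and a 1.5-fold threshold.

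Named were all 9 members, any feature overlapping them, the 3 genes nearest in profile to each member that ranged at least 1.5-fold (without predicted genes and clone or Riken names), and a few genes of each list. The members and the gene lists were chosen with earlier results of these data known. Table coordinates are mm9, counted from 1. Promoters are from RefSeq, GRCm38.p6, trimmed at GENCODE vM21 exons.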

Additional observations from a re-analysis of the deposited data

How the results depend on the processing

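All 27 member folds kept their direction and stayed inside their counting intervals under DESeq2 size factors, total counts, RPKM ratios and each count column alone. The largest change was 1.09-fold, for colon over ileum of Pbx4 without the first column. The main folds are means of 2 columns that differ by less than counting noise. Single columns could therefore hardly leave the intervals, and their agreement is no replicate check. The median log2 fold of all genes lay between -0.00 and 0.02 under every scaling tried. Counts of all genes at least 2-fold apart depended on the count minimum: without one they were 3450 for caecum over ileum, 3721 for caecum over colon and 3761 for colon over ileum, and a minimum of 100 counts left 707, 804 and 810. At 1.5-fold they were 2737, 2768 and 2796, and members apart between caecum and colon numbered 4. Shares of the 9 genes in their sum depend on division by length: without it Meis2 took 40.8%, 44.2% and 42.8% in ileum, caecum and colon. No paired analysis was possible because each tissue has 1 sample and the column numbers tie no samples together. Depth limits Pbx4 most, at 80 to 186 counts.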

Other observations

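The nearest genes on either side of each member, 18 in all, were also read, and none was 2-fold apart between any pair of tissues. Fez1, a gene of axon growth 12060 bases from Pknox2, was chosen for mention after its values were seen. It had 1201, 2575 and 1193 counts in ileum, caecum and colon, with folds of 1.65 for caecum over ileum and 1.71 for caecum over colon, where Pknox2 had 1.20 and 1.66. Beside Pbx3, which was highest in the colon, Mapkap1, a subunit of a TOR kinase complex, had folds of 1.11 for caecum over ileum and 1.10 for colon over ileum, and Fam125b had 1.32 and 0.937.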
